A study of Mus musculus with 16 samples.

Results

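The 38 genes described here encode the machinery that makes ribosomes, together with abundant proteins of the nucleolus. They were compared between P6D4, a mouse thymic lymphoma line labelled as DN3 and derived from SCID.adh, and 70Z/3, a mouse lymphoblast line labelled as pre-B. The genes were matched by symbol, and all 38 were found among the 38293 genes of the deposited count tables and were among the 13750 genes with enough counts to be tested. Each line had 3 RNA-Seq libraries. The labels name no treatment, allele or time for either line, each lineage was represented by 1 cell line and no label says whether a line's libraries were grown apart. The p-values therefore describe library-to-library spread, which may be technical. Miz1 binding was measured by ChIP-Seq in 1 library per line.

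Ribosome production starts in the nucleolus, where RNA polymerase I transcribes the ribosomal DNA into a long precursor RNA. Small nucleolar ribonucleoproteins (snoRNPs) of the box C/D and box H/ACA classes modify this precursor, and large assemblies of processing factors then cut and fold it into the small and the large ribosomal subunit. Many genes of this pathway are known targets of the transcription factor Myc, which binds E-box sequences together with Max, and fast-growing lymphoid cells keep the pathway active.

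Gene counts summed to between 48255176 and 54815145 per library in P6D4 and between 45481949 and 48885150 in 70Z/3. Levels are given as counts-per-million (CPM) on library sizes scaled by TMM (trimmed mean of M values), and all differences are P6D4 minus 70Z/3, on the log2 scale with the standard error of the fit. A gene was called higher or lower at an edgeR quasi-likelihood p under 0.05 after Benjamini-Hochberg adjustment over all genes tested. The 12 pre-B markers summed to 4087 to 4216 CPM in 70Z/3 and 10.9 to 14.7 CPM in P6D4. The 12 thymocyte markers summed to 4016 to 4070 CPM in P6D4 and 365 to 372 CPM in 70Z/3, and 1 of them, Cd28, was higher in 70Z/3. Myeloid and stromal markers summed to at most 39.6 and 87.4 CPM in any library, the last almost all Pecam1. Of the 10 myeloid markers, 6 were tested, with 3 higher and 3 lower in P6D4, from -7.54 for Csf1r to 9.20 for Ly6c2, and Cebpa, Mpo and Elane had means of at most 0.049 CPM. The part of such transcripts in the results was not tested. In bulk libraries such as these, fewer cells expressing a gene and less RNA per cell cannot be told apart.

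Myc, the main transcriptional driver of growth genes in lymphoid tumours, was higher in P6D4. It stood at 443, 459 and 468 CPM in the P6D4 libraries and at 126, 126 and 132 CPM in those of 70Z/3, a 3.58-fold difference (log2 1.84 ± 0.04, adjusted p = 8.05e-15). The libraries of the lines did not overlap. Its paralog Mycn had no count in any library, and Mycl had none in P6D4 and a mean of 0.014 CPM in 70Z/3. Max, the dimerization partner of Myc, was lower in P6D4 by a log2 difference of -0.36. Among the other genes of the network, Mxd1 (-0.94), Mxd4 (-0.84) and Mnt (-0.15) were lower, and Mxi1 (3.02), Mxd3 (0.64), Mlx (0.33) and Mga (0.31) were higher in P6D4.

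The ribosome biogenesis genes did not move in one direction beside this Myc difference. Of the 38, 14 were called higher in P6D4, against 43.3% of all genes tested, and 16 were called lower, against 43.2%. The other 8 were not called, so 78.9% of the members were called beside 86.5% of all genes. Upper-quartile scaling, which raised the median of all genes by 0.057, gave 18 higher and 14 lower. The median member difference was -0.01, near the 0.01 of all genes tested. The summed level of the members was 10553, 9740 and 9915 CPM in P6D4 and 10511, 11335 and 10941 CPM in 70Z/3. The sums of the lines overlapped, with means of 10069 ± 428 and 10929 ± 412 CPM (SD, n = 3). The sums weigh abundant genes most, above all Ncl (log2 -0.50) and Npm1 (0.24), and so do not describe the typical member.

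The differences were also small. The median absolute difference of the members was 0.32, against 0.67 for all genes tested, and 22 of the 38 (57.9%) differed by less than 0.4, against 34.5% of all genes. Small differences were not particular to the members. The 121 other ribosome biogenesis genes had a median absolute difference of 0.36, with 54.5% under 0.4. For 16 proliferation genes these values were 0.35 and 62.5%. The comparison with all genes was not matched for expression level. The libraries of the lines did not overlap for 27 members, against 87.4% of all genes. Tested against a 2-fold change (edgeR glmTreat, adjusted p under 0.05), 0 members were higher and 1, Taf1d, was lower, beside 16.6% and 18.6% of all genes and 35.2% in either direction. At an unadjusted glmTreat p under 0.05 these counts were again 0 and 1. The members ranged from -1.07 for Taf1d (chr9:15305953-15316997 in GRCm38.p6) to 0.83 for Bop1 (chr15:76452988-76477249).

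**Figure D1:**
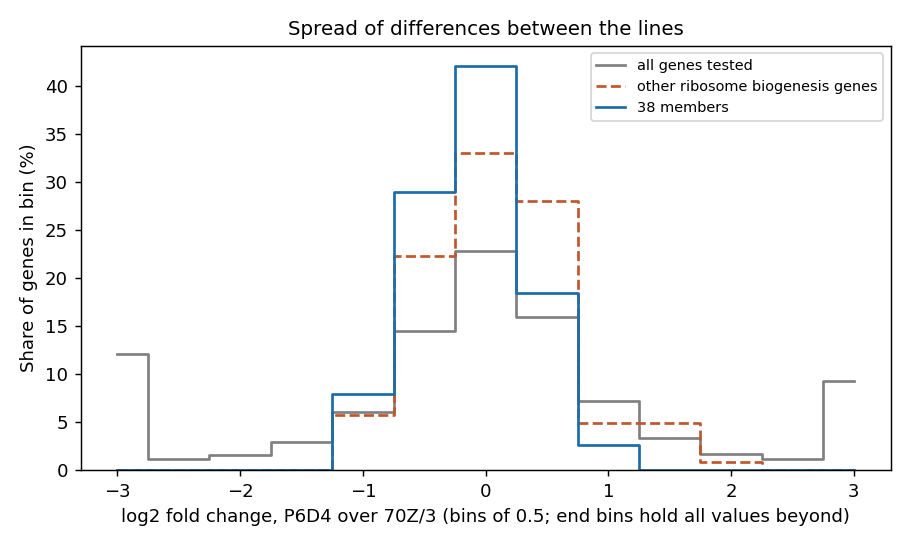
Distribution of the log2 difference between P6D4 and 70Z/3 (x axis) as a percent of genes (y axis) for the 38 members, the 121 other ribosome biogenesis genes and all 13750 genes tested. Bins are 0.5 wide and the end bins hold all values beyond. The members lie between -1.07 and 0.83. Of them 57.9% lie within 0.4 of 0, against 54.5% of the other ribosome biogenesis genes and 34.5% of all genes.

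**Figure D2:**
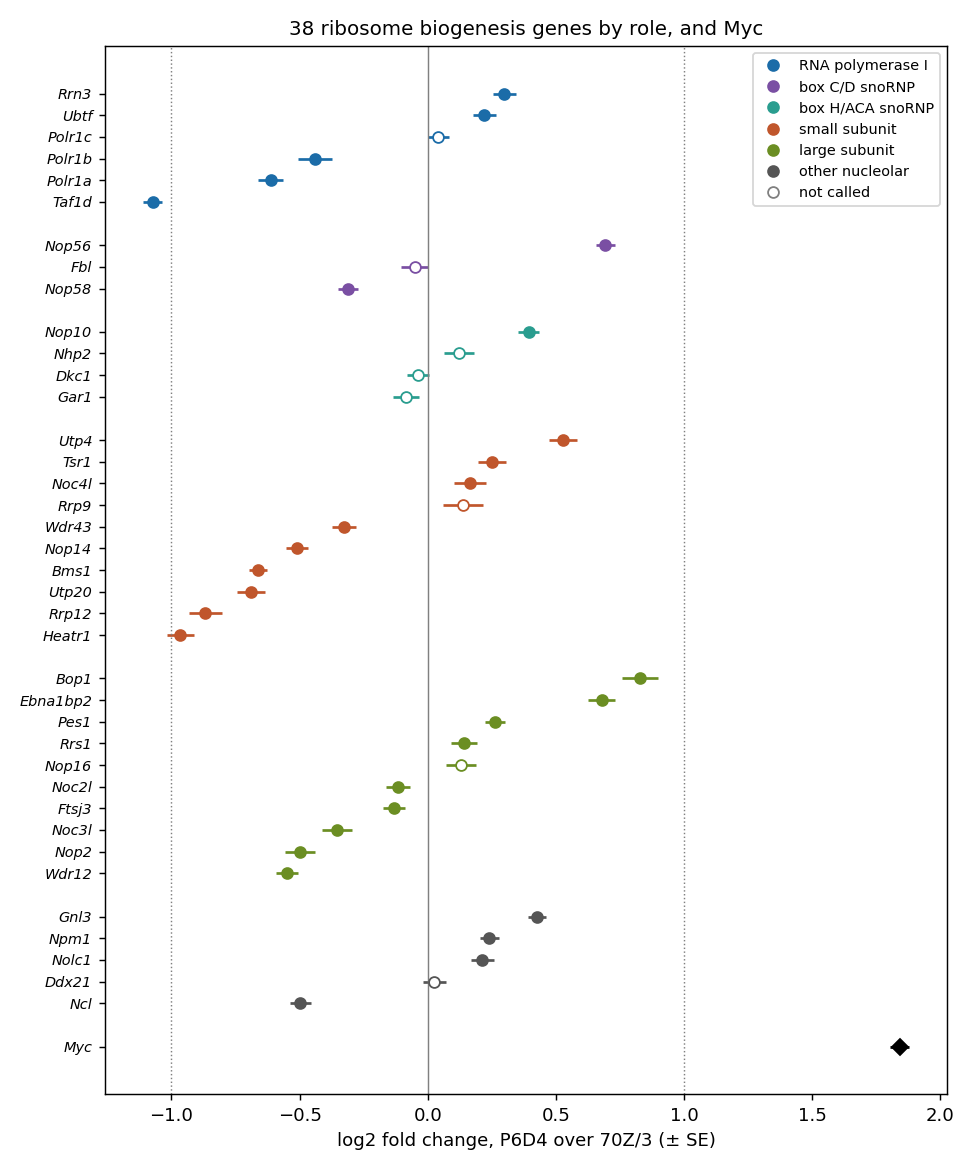
Log2 difference of each of the 38 members, P6D4 minus 70Z/3, with the standard error of the edgeR fit, grouped by role in ribosome production. Genes called higher and genes called lower appear together in 5 of the 6 groups, and in the box H/ACA group 1 gene, Nop10, was called.

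Promoters bear on the comparison with Myc, because the canonical E-box CACGTG is the site that Myc and Max bind. The search used the RefSeq promoters of build GRCm38.p6, from 250 bases before to 50 bases after the start site. The motif reads the same on both strands, and every match is also a match to the looser form CANNTG. Of the 33 members with a promoter in the table, 7 held CACGTG (21.2%), against 19 of 100 other ribosome biogenesis genes (19.0%), 11.6% of tested genes and 8.09% of all genes. CANNTG was in 22 of the 33 (66.7%), against 68.0% of tested genes and 74.99% of all genes. Rrs1, Fbl, Npm1, Bop1 and Rrp12 were not searched.

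The 7 promoters with a match are shown because their genes went in both directions. Rrn3 encodes the factor that makes RNA polymerase I competent to initiate and was the only member with 2 matches. Nop2 encodes a methyltransferase of the large subunit RNA. For both, the 250 bases before the start site are given, 5′ to 3′, at chr16:13780449-13780698 (plus strand) for Rrn3 and chr6:125131633-125131882 (plus strand) for Nop2, with the E-box in capitals.
Rrn3: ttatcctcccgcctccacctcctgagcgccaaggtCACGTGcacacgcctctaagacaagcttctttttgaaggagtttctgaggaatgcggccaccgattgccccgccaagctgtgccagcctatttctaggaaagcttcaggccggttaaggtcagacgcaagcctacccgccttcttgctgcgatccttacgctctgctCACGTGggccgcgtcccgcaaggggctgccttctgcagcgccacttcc
Nop2: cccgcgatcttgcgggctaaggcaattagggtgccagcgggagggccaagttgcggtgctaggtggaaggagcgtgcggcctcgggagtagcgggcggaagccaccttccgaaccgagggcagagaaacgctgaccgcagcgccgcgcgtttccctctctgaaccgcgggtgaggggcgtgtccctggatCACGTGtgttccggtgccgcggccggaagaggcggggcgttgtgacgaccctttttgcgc
Counting from the start site as 0, the motif began at -215 and at -48 in Rrn3 and at -60 in Nop2. In the other 5 promoters it lay after the start site, with its first base between 2 and 37. These 30-base windows lie at chr11:3963965-3963994 (plus) for Pes1, chr8:106893643-106893672 (plus) for Utp4, chr11:74898092-74898121 (plus) for Tsr1, chr17:71616220-71616249 (plus) for Wdr43 and chr10:88826765-88826794 (minus) for Utp20.
Pes1: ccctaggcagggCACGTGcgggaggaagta
Utp4: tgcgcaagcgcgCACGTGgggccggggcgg
Tsr1: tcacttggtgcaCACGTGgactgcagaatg
Wdr43: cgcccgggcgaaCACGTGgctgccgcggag
Utp20: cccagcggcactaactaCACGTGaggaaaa
Of these 7 genes, Utp4 (0.53), Rrn3 (0.30), Pes1 (0.26) and Tsr1 (0.25) were called higher in P6D4. Wdr43 (-0.33), Nop2 (-0.50) and Utp20 (-0.69) were called lower. Of the members that were not called, 7 had a promoter in the table and 0 of these held the motif. A match to these letters is a description of the window and not evidence of binding.

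Transcription of ribosomal DNA was represented by 6 members, of which 2 were called higher, 3 lower and 1 neither, with a median of -0.20. All genes tested were 43.3% higher and 43.2% lower, so the count describes these 6 only. Taf1d, a subunit of the SL1 promoter selectivity factor, had the most negative difference of all members. Its level was 66.8, 64.9 and 66.4 CPM in P6D4 and 144, 139 and 134 CPM in 70Z/3, 2.10-fold lower in P6D4 (log2 -1.07 ± 0.04, adjusted p = 4.82e-12). Every P6D4 library was below every 70Z/3 library. The 2-fold test gave an adjusted p of 0.0292, which became 0.112 without P6D4 replicate 2, 0.0526 without P6D4 replicate 3 and 0.0859 without 70Z/3 replicate 1. It was 0.391 under upper-quartile scaling and 0.147 with no scaling beyond total counts.

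The catalytic core of RNA polymerase I was also lower in P6D4. Polr1a, its largest subunit, was at 170, 153 and 159 CPM in P6D4 and 230.04, 259 and 248 CPM in 70Z/3 (1.53-fold lower, log2 -0.61 ± 0.05, adjusted p = 3.85e-08). Polr1b, which forms the active site with it, was at 75.2, 66.2 and 65.4 CPM against 84.0, 98.9 and 97.6 CPM (1.36-fold lower, log2 -0.44, adjusted p = 2.41e-05). Neither gene had overlapping libraries. Polr1c, a subunit shared with RNA polymerase III, was not called, at 53.8, 50.1 and 53.0 CPM against 50.2, 51.8 and 50.5 CPM (log2 0.04 ± 0.04, adjusted p = 0.359), although upper-quartile scaling gave it an adjusted p of 0.0423.

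Rrn3 and Ubtf, which act with SL1 at the ribosomal DNA promoter, went the other way. Rrn3 was at 123, 113 and 120 CPM in P6D4 and 90.3, 100.2 and 99.0 CPM in 70Z/3 (1.23-fold higher, log2 0.30 ± 0.05, adjusted p = 3.29e-05). Ubtf, the high mobility group protein that keeps ribosomal DNA open, had means of 233 ± 7.69 and 200.3 ± 12.5 CPM (SD, n = 3, log2 0.22, adjusted p = 0.000406). Both genes had non-overlapping libraries. In this group the polymerase subunits that were called and Taf1d were lower in P6D4, while Rrn3 and Ubtf were higher.

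Of the 3 box C/D members, which belong to the complex that methylates ribose in ribosomal RNA, 1 was called higher, 1 lower and 1 neither. Beside them, 43.3% of all genes tested were higher and 43.2% lower, so the count describes these 3 only. Nop56, a core scaffold protein, was at 475, 449 and 465 CPM in P6D4 and 273, 296 and 289 CPM in 70Z/3 (1.62-fold higher, log2 0.69 ± 0.04, adjusted p = 6.82e-10). Its partner in the same particle, Nop58, was at 367, 352 and 353 CPM against 420.2, 462 and 446 CPM (1.24-fold lower, log2 -0.31 ± 0.04, adjusted p = 4.53e-06). The pair therefore differed between the lines in opposite directions, each without overlap. Fbl, the methyltransferase itself, was at 144, 131 and 125 CPM against 129.9, 144 and 142 CPM and was not called (log2 -0.05 ± 0.05, adjusted p = 0.370). It was called lower without P6D4 replicate 1 (-0.11, adjusted p = 0.0381).

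Of the 4 proteins of the box H/ACA particle, which converts uridine to pseudouridine, 1 was called. Among all genes tested 86.5% were called, and the count describes these 4 only. Nop10, its smallest core protein, was at 109, 101 and 99.3 CPM in P6D4 and 77.0, 79.4 and 78.8 CPM in 70Z/3 (1.31-fold higher, log2 0.39 ± 0.04, adjusted p = 7.8e-07). The lines did not overlap. Dkc1, the pseudouridine synthase, was at 214, 202 and 198 CPM against 199, 219 and 211 CPM (log2 -0.04 ± 0.04, adjusted p = 0.430). Gar1 was at 82.7, 73.8 and 72.5 CPM against 77.5, 83.9 and 81.5 CPM (log2 -0.08 ± 0.05, adjusted p = 0.135).

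Nhp2, an RNA-binding protein of the same particle, was at 125, 111 and 110.5 CPM against 96.8, 112 and 110.2 CPM (log2 0.12 ± 0.06, adjusted p = 0.0658). The libraries of the lines overlapped for Dkc1, Gar1 and Nhp2, and the calls of Gar1 and Nhp2 depended on single libraries. Gar1 was called lower without P6D4 replicate 1 (-0.14, adjusted p = 0.00542). Nhp2 was called higher without P6D4 replicate 2 (adjusted p = 0.0481). The same held when P6D4 replicate 3 (adjusted p = 0.0288) or 70Z/3 replicate 2 (adjusted p = 0.0360) was omitted. With all libraries kept, Nhp2 was called higher under upper-quartile scaling (adjusted p = 0.0129). No scaling beyond total counts (adjusted p = 0.0247) and no filter on low counts (adjusted p = 0.0241) also gave this call.

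Of the 10 small subunit members, which build the small subunit processome and mature the pre-40S particle, 3 were called higher, 6 lower and 1 neither, with a median of -0.42. All genes tested were 43.3% higher and 43.2% lower, and 19 of 47 other small subunit genes were higher and 16 lower, so the count describes these 10 only. Heatr1, which acts in both ribosomal DNA transcription and processing, was at 122, 104 and 108 CPM in P6D4 and 207, 225 and 219 CPM in 70Z/3 (1.95-fold lower, log2 -0.96 ± 0.05, adjusted p = 7.52e-10). Rrp12, a factor in pre-ribosome maturation and export, was at 49.1, 45.5 and 46.5 CPM against 75.8, 92.7 and 89.1 CPM (1.83-fold lower, log2 -0.87 ± 0.06, adjusted p = 1.82e-08). In both genes every P6D4 library was below every 70Z/3 library.

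Utp20, a large scaffold of the processome, was at 152, 128 and 135 CPM in P6D4 and 213, 229 and 228 CPM in 70Z/3 (1.61-fold lower, log2 -0.69, adjusted p = 4.21e-08). Bms1, a GTPase of the processome, was at 159.8, 153 and 155 CPM against 236, 252 and 251 CPM (1.58-fold lower, log2 -0.66 ± 0.04, adjusted p = 6.69e-10). Nop14 was at 79.6, 73.8 and 71.8 CPM against 106, 109.8 and 105 CPM (1.42-fold lower, log2 -0.51 ± 0.04, adjusted p = 6.3e-08). The sixth lower gene, Wdr43, had means of 208 ± 8.64 and 260.5 ± 15.1 CPM (SD, n = 3, log2 -0.33, adjusted p = 1.2e-05).

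Utp4 was the most raised gene of this group. It sits in the same early-binding subcomplex as Heatr1 and Wdr43, and its level was 114, 109 and 114 CPM in P6D4 and 70.5, 83.9 and 79.4 CPM in 70Z/3 (1.44-fold higher, log2 0.53 ± 0.05, adjusted p = 5.79e-07). Heatr1 and Wdr43 were called lower. Utp4, Heatr1 and Wdr43 each had non-overlapping libraries. Tsr1, a GTPase-like factor of late small subunit maturation, had means of 149.97 ± 8.80 and 126 ± 9.77 CPM (SD, n = 3, log2 0.25 ± 0.05, adjusted p = 0.000802). Noc4l, the partner of Nop14, was called higher with overlapping libraries (62.2 ± 2.62 against 55.4 ± 5.51 CPM, SD, n = 3, log2 0.17 ± 0.06, adjusted p = 0.0230), and without 70Z/3 replicate 1 it was no longer called (0.08, adjusted p = 0.102). Rrp9 was not called, at 55.4, 52.3 and 50.1 CPM against 40.5, 52.7 and 50.3 CPM (log2 0.14 ± 0.08, adjusted p = 0.113), but was called higher without 70Z/3 replicate 2 (0.21, adjusted p = 0.0201) and under upper-quartile scaling (adjusted p = 0.0337).

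Of the 10 members that assemble the large subunit, 4 were called higher, 5 lower and 1 neither, with a median of 0.01. These counts stand beside 43.3% higher and 43.2% lower of all genes tested. Bop1, Pes1 and Wdr12 form the PeBoW complex, which is needed to process the precursor of the large subunit RNA. Bop1 was at 233, 204 and 206 CPM in P6D4 and 106, 131 and 125 CPM in 70Z/3 (1.77-fold higher, log2 0.83 ± 0.07, adjusted p = 8.49e-08), the most positive difference of all members. Pes1 had means of 167 ± 6.46 and 139.7 ± 5.26 CPM (SD, n = 3, log2 0.26 ± 0.04, adjusted p = 3.07e-05). Wdr12 was at 88.2, 82.1 and 83.0 CPM against 118, 129 and 123 CPM (1.46-fold lower, log2 -0.55 ± 0.04, adjusted p = 3.51e-08). The complex thus had 2 subunits higher and 1 lower in P6D4, each without overlapping libraries.

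Ebna1bp2, an assembly factor of the pre-60S particle, was at 155, 143 and 145 CPM in P6D4 and 84.3, 97.6 and 95.1 CPM in 70Z/3 (1.60-fold higher, log2 0.68 ± 0.05, adjusted p = 2.51e-08). Nop2 was at 126, 117 and 125 CPM against 154, 184 and 182 CPM (1.41-fold lower, log2 -0.50 ± 0.06, adjusted p = 2.64e-06). Noc3l had means of 30.8 ± 2.69 and 39.5 ± 1.38 CPM (SD, n = 3, log2 -0.35 ± 0.06, adjusted p = 7.96e-05). All 3 genes had non-overlapping libraries.

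The remaining large subunit genes lay close to the threshold. Rrs1 was called higher at 84.0 ± 2.56 against 76.2 ± 5.43 CPM (SD, n = 3, log2 0.14 ± 0.05, adjusted p = 0.0164), and not without 70Z/3 replicate 1 (0.08, adjusted p = 0.0714). Ftsj3, a methyltransferase-like factor, was called lower at 153 ± 7.46 against 167 ± 7.73 CPM (log2 -0.13 ± 0.04, adjusted p = 0.0131), and not without P6D4 replicate 2 (adjusted p = 0.0920) or 70Z/3 replicate 2 (adjusted p = 0.0577). Noc2l was called lower at 259 ± 9.76 against 280.3 ± 17.9 CPM (log2 -0.12 ± 0.05, adjusted p = 0.0311), and leaving out P6D4 replicate 2, P6D4 replicate 3, 70Z/3 replicate 2 or 70Z/3 replicate 3 gave adjusted p values of 0.147, 0.0696, 0.122 and 0.101. Upper-quartile scaling ended both calls (adjusted p = 0.140 for Ftsj3 and 0.258 for Noc2l). Nop16 was not called at 78.0, 72.4 and 74.1 CPM against 61.2, 73.1 and 71.0 CPM (log2 0.13 ± 0.06, adjusted p = 0.0524), and was called without P6D4 replicate 2 (adjusted p = 0.0466) or 70Z/3 replicate 2 (adjusted p = 0.0152). With all libraries kept, it was called higher under upper-quartile scaling (adjusted p = 0.009997). No scaling beyond total counts (adjusted p = 0.0191) and no filter on low counts (adjusted p = 0.0211) also gave this call.

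The last group holds proteins known for their abundance in the nucleolus and for chaperone, GTPase or helicase functions there. Of its 5 members, 3 were called higher, 1 lower and 1 neither, with a median of 0.21. Since 43.3% of all genes tested were higher and 43.2% lower, the count describes these 5 only. Ncl (nucleolin), which binds the nascent precursor RNA, was at 2469, 2257 and 2374 CPM in P6D4 and 3220.45, 3483 and 3313 CPM in 70Z/3 (1.41-fold lower, log2 -0.50 ± 0.04, adjusted p = 5.16e-08). Npm1 (nucleophosmin), a nucleolar histone and ribosome chaperone, was at 2073, 1944 and 1902 CPM against 1716, 1672 and 1623 CPM (1.18-fold higher, log2 0.24 ± 0.04, adjusted p = 4.64e-05). These proteins of the same compartment thus differed in opposite directions without overlap. Npm1 has processed pseudogene copies and reads that aligned to several places were not counted, so its level is uncertain.

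Gnl3 (nucleostemin), a GTPase of proliferating cells, was at 173, 167 and 169 CPM in P6D4 and 122, 131 and 126 CPM in 70Z/3 (1.34-fold higher, log2 0.43 ± 0.04, adjusted p = 7.72e-08). Nolc1, which brings snoRNPs to the nucleolus, had means of 361 ± 13.4 and 312 ± 17.9 CPM (SD, n = 3, log2 0.21 ± 0.04, adjusted p = 0.000443). Neither had overlapping libraries. Ddx21, an RNA helicase that acts in ribosomal DNA transcription and processing, was at 636, 569 and 582 CPM against 564, 612 and 579 CPM and was not called (log2 0.03 ± 0.04, adjusted p = 0.592). Its sign turned without P6D4 replicate 1 (-0.02) and without 70Z/3 replicate 1 (-0.0035).

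**Figure D3:**
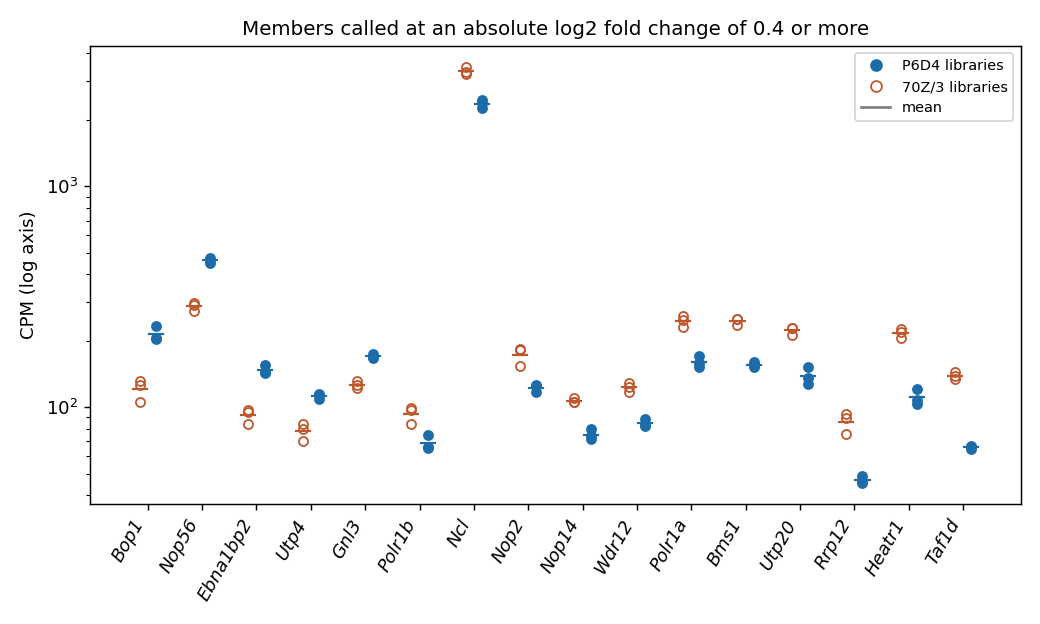
CPM (log axis) of the 16 members called at an absolute log2 difference of at least 0.4, ordered from the most raised in P6D4 at the left to the most lowered at the right. Each point is 1 of the 3 libraries of a line and each bar the mean of the line; P6D4 lies above 70Z/3 for Bop1, Nop56, Ebna1bp2, Utp4 and Gnl3 and below it for the other 11, and levels of different genes are not corrected for length.

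Within each line the members stood high or low together from library to library. P6D4 replicate 1 was the highest library of its line for 38 of 38 members, against 38.04% of all genes tested. P6D4 replicate 2 was the lowest for 27, against 25.2% of all genes. 70Z/3 replicate 1 was the lowest of its line for 35 of 38 members, against 39.9% of all genes. 70Z/3 replicate 2 was the highest for 35, against 31.2% of all genes. Relative to the mean of the line on the log2 scale, the median member stood at 0.06 in P6D4 replicate 1, -0.08 in 70Z/3 replicate 1 and 0.06 in 70Z/3 replicate 2, where the medians of all genes were within 0.01 of 0. The other ribosome biogenesis genes had the same order, with P6D4 replicate 1 highest for 96 of 121 (79.3%) and 70Z/3 replicate 1 lowest for 101 of 121 (83.5%). Genes of one pathway in one library are not independent observations. Myc was lowest in P6D4 replicate 1 of the 3 libraries of its line. P6D4 replicate 1 and 70Z/3 replicate 2 were also the libraries with the most gene counts in their lines (54815145 and 48885150). P6D4 replicate 2 held 52076755 gene counts and replicate 3 held 48255176, and 70Z/3 replicate 1 held 47568819 and replicate 3 held 45481949. Whether depth bears on the order of the libraries was not tested.

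**Figure D4:**
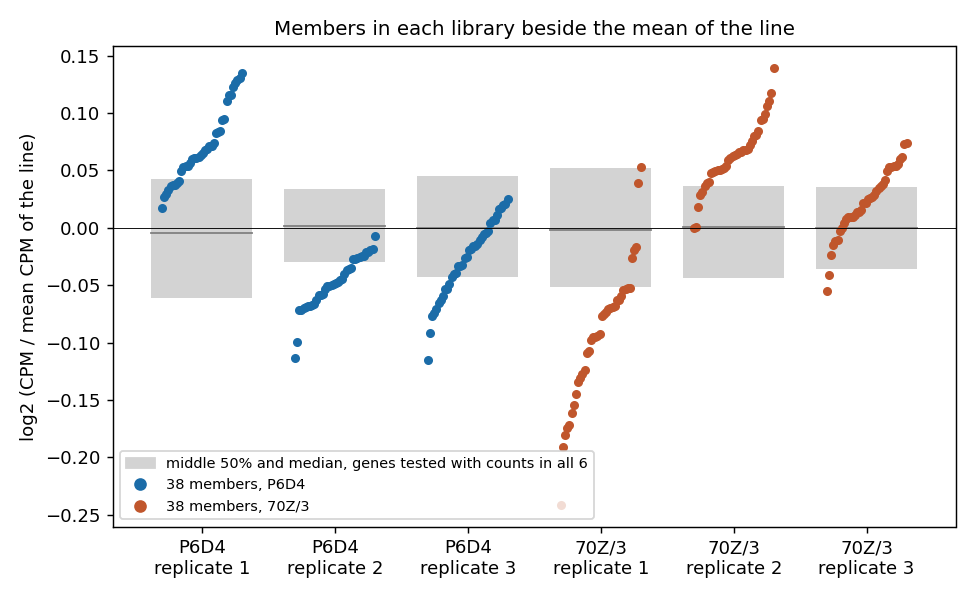
Log2 of each member's CPM over the mean of its line (y axis) in each of the 6 libraries (x axis), 38 points per library in ascending order. Grey boxes span the middle 50% of the 12259 tested genes with counts in all 6 libraries, with a line at their median. All 38 points lie above 0 in P6D4 replicate 1 and 36 lie below 0 in 70Z/3 replicate 1.

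Without P6D4 replicate 1, 14 members were called higher and 18 lower, and without 70Z/3 replicate 1, 12 and 16. With neither library, 12 were called higher and 19 lower, and Heatr1 passed the 2-fold test beside Taf1d. Those libraries were picked, after seeing the data, for where the members stood in them, so a move toward lower values was fixed by the choice and supports nothing further. In that comparison Fbl (-0.16, adjusted p = 0.000318), Gar1 (-0.18, adjusted p = 0.000166) and Dkc1 (-0.11, adjusted p = 0.00413) were called lower, Noc4l and Rrs1 were no longer called (adjusted p = 0.185 and 0.102), and Nhp2, Rrp9 and Ddx21 changed sign without being called (-0.0039, -0.01 and -0.05).

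The rest of the pathway was read from lists of 126 further genes, of which 121 were matched and tested. Of these, 58 were called higher in P6D4, 40 lower and 23 neither (81.0% called beside 86.5% of all genes), with a median of 0.07. The 13 other genes of RNA polymerase I transcription had 11 higher and 2 lower, with a median of 0.38, beside 43.3% and 43.2% of all genes. The polymerase I subunit genes Polr1f, Polr1g and Polr1h were unmatched and are missing from this count. The 9 other snoRNP genes had 3 higher and 3 lower (median 0.02), the 47 other small subunit genes 19 and 16 (median -0.02), and the 52 other large subunit genes 25 and 19 (median 0.07). The most raised RNA polymerase I genes were Polr2k (2.06 ± 0.05, adjusted p = 1.43e-13) and Polr2f (1.66, adjusted p = 2.92e-12), subunits shared among the nuclear RNA polymerases. The lowered ones were Polr1d (-1.18 ± 0.03, adjusted p = 4.50e-13), a subunit shared with RNA polymerase III, and Tcof1 (-0.60 ± 0.04, adjusted p = 1.99e-08), the nucleolar protein treacle.

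The other lists had their extremes in Snu13 (1.63), a box C/D core protein, and Ruvbl2 (0.57) among the raised snoRNP genes, with Ruvbl1 (-0.45) and Naf1 (-0.41) the most lowered. Among small subunit genes Utp23 (1.53) and Rps19bp1 (1.29) were the most raised and Imp4 (-1.09) and Emg1 (-0.84) the most lowered. Among large subunit genes they were Nol12 (1.74) and Brix1 (1.05), and Mdn1 (-0.99) and Sdad1 (-0.96). Of the 121, 7 passed the 2-fold test as higher, against 16.6% of all genes. These 7, Polr2k, Polr2f, Snu13, Utp23, Dcaf13, Rps19bp1 and Nol12, were all genes of chromosome 15. Polr1d on chromosome 5 and Imp4 on chromosome 1 passed it as lower.

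Whole chromosomes differed between the lines, and the members were therefore set beside their own. The median difference of the tested genes was 0.91 on chromosome 15 and 0.46 on chromosome 10, and -0.50, -0.46 and -0.36 on chromosomes 6, 1 and 5. The chromosome groups that follow were chosen after seeing these medians. On chromosomes 1, 5 and 6, 7 of 9 members were called lower and 2 higher (median -0.50), beside 15 lower and 1 higher of 20 other ribosome biogenesis genes (-0.45) and 63.5% lower of the 2197 other tested genes there (-0.43). The lower members there were Polr1a, Bms1, Nop2, Nop14, Nop58, Wdr12 and Ncl, and the higher ones Noc4l and Rrs1.

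Chromosomes 10 and 15 held 3 members, with Bop1 higher, Utp20 lower and Ddx21 not called. There, 19 of 20 other ribosome biogenesis genes were called higher, beside 68.9% of 1090 other tested genes. On the remaining chromosomes 11 of 26 members were called higher (42.3%), 8 lower (30.8%) and 7 neither (median 0.13), beside 44.6% higher and 41.3% lower of the 9608 other tested genes (median 0.04). Across the 38 members the difference and the chromosome median had a Pearson r of 0.44 and a Spearman rho of 0.42, beside 0.11 and 0.21 over the 13054 tested genes with a chromosome. Members of one chromosome share its median, so these are descriptions. The members also spread less than all genes (median absolute difference 0.32 against 0.67), so the correlations of the sets are not alike in scale. Whether members follow their chromosome more closely than other genes was not tested. Whether chromosome copy number differs between the lines was not tested.

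Several of the larger differences were then set beside both the chromosome median and the median of the tested genes within 1 Mb. Taf1d (-1.07) differed from the median of chromosome 9 by -0.998, but its 16 neighbours had a median of -0.92. Bop1 (0.83) differed from the median of chromosome 15 by -0.08, and its 50 neighbours had a median of 1.47. Nop2 (-0.50) differed from the median of chromosome 6 by 0.00, while its 35 neighbours had a median of -0.01. The chromosome and the neighbourhood thus gave different pictures for these 3 genes.

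For Polr1a both were near the gene's own -0.61, with a difference of -0.11 from the chromosome and a neighbour median of -0.49 (29 genes). For Wdr12 (-0.55) they were -0.08 and -0.37 (17 genes). Heatr1, Rrp12 and Utp20 were lower than either, differing from their chromosomes by -0.89, -0.83 and -1.148, with neighbour medians of 0.29, 0.27 and 0.04 (5, 23 and 15 genes). Nop56, Ebna1bp2 and Gnl3 were higher than either, differing by 0.65, 0.63 and 0.51, with neighbour medians of -0.02, 0.17 and -0.02 (31, 32 and 30 genes). Myc, on chromosome 15 like Bop1, lay 0.93 above the median there. In all, 17 members were above and 21 below their chromosome median. Subtracting it brought the median absolute difference of the members from 0.32 to 0.21 and their SD from 0.47 to 0.43.

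**Figure D5:**
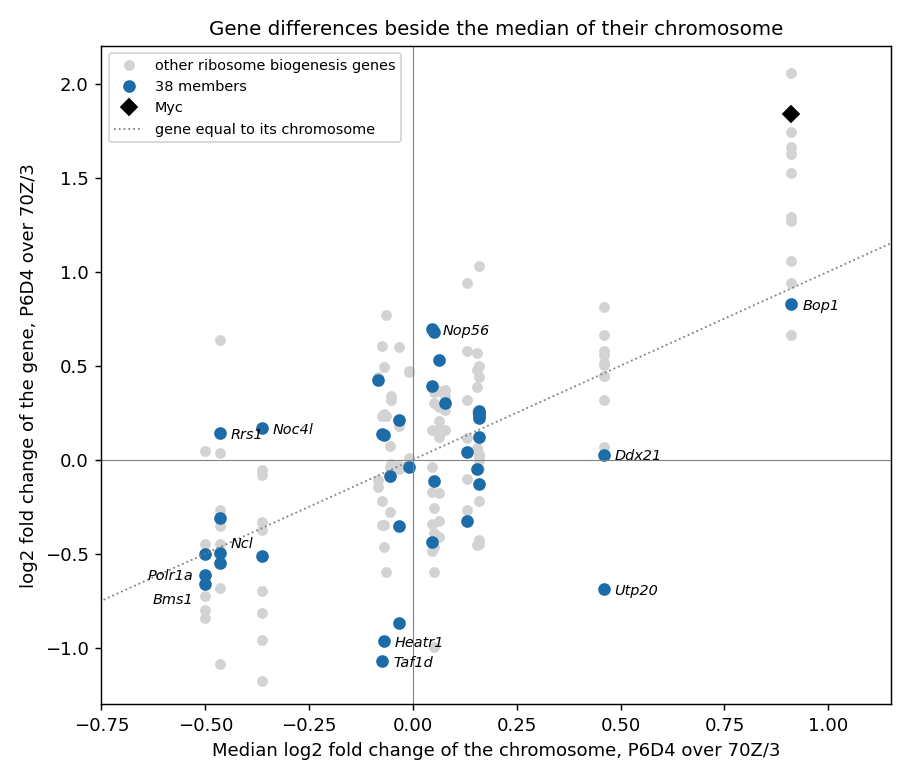
Log2 difference of each of the 38 members, Myc and the other ribosome biogenesis genes (y axis) against the median log2 difference of the other tested genes on the chromosome (x axis), both P6D4 minus 70Z/3. Genes on the dotted line equal their chromosome; Bop1 sits near it at a chromosome median of 0.91, whereas Utp20, Taf1d and Heatr1 lie below it and Nop56 above it.

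Some members share a structure that the choice of genes did not use, in that their gene bounds enclose snoRNA genes. This held for 8 of the 38 (21.1%), against 2.34% of tested protein-coding genes and 2 of 121 other ribosome biogenesis genes (1.65%). Taf1d enclosed 6, Nop56 5, Nop58 4, Gnl3 and Wdr43 3 each, Ncl 2, and Dkc1 and Tsr1 1 each. These host genes went in both directions, with Nop56, Gnl3 and Tsr1 higher, Taf1d, Nop58, Wdr43 and Ncl lower, and Dkc1 not called. The gene bounds carry no strand, and 11 members, among them Taf1d, Bop1, Wdr12 and Nop56, overlapped another protein-coding gene. HTSeq set 0.38 to 0.42% of uniquely aligned reads aside as ambiguous between genes. Whether counting used strand is not stated, so such genes may have lost counts or may hold reads of the other gene.

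Miz1 is a DNA-binding partner through which Myc can repress promoters, and its Zbtb17-encoded protein was the target of the ChIP. Its peaks were read at the member genes. The lists held 21629 peaks in P6D4 and 10462 in 70Z/3, from 1 library each, with 2067731 and 4484034 tags left after filtering, so they differ in depth and have no replicate check. The tags left were 3.40% and 14.5% of all Miz1 tags, with redundant rates of 0.97 and 0.85. In the controls the redundant rates were 0.54 and 0.15. A peak summit lay within 1 kb of a gene end for 1 of 38 members in P6D4 (2.63%, against 1.23% of tested protein-coding genes) and for 2 of 38 in 70Z/3 (5.26%, against 3.94%). Counts of 1 and 2 genes are too small to set the members apart from other genes.

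The P6D4 peak was at Wdr12, at chr1:60097474-60097900, with the authors' fold enrichment of 16.1 and -log10 q of 26.3, rank 193 of the list by fold. Its summit was 242 bp from an annotated Wdr12 start site and also within 1 kb of an end of the neighbouring gene Carf. In 70Z/3 the peaks were at Bop1 (chr15:76477355-76477742, 305 bp from the gene end and also near Hsf1) and at Ddx21 (chr10:62601906-62602210, 263 bp after the start site), both with a fold of 7.88 and a -log10 q of 9.03. Wdr12 was lower in P6D4, Bop1 higher and Ddx21 not called. Within 500 bp of a gene end the counts were 0 in P6D4, where the Wdr12 summit is 835 bp from the gene end, and 2 in 70Z/3, and at a -log10 q of at least 10 they were 1 and 0. Myc held a 70Z/3 peak inside the gene (fold 12.7, -log10 q 19.8). Coordinates are those of mm10.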

How the data were processed

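RNA-Seq counts per Ensembl gene, whole numbers and not normalised, were deposited by the authors as 1 table per library. Per the submitters' processing notes the tools included HTSeq, TopHat2 2.0.10 and Bowtie2 2.10, with mm10 as build. The 5 HTSeq summary lines were left out. Of uniquely aligned reads, 14.5 to 16.0% were assigned to no counted gene feature. Non-unique alignments, not counted, came to 1.10 to 1.14 for every gene count in P6D4 and to between 1.41 and 1.44 in 70Z/3. Of 38293 genes, 36345 had a symbol. Counts were filtered with filterByExpr, scaled by TMM, and tested with edgeR 4.0.16 (R 4.3.3), with glmTreat for a 2-fold change. The standard error is the log2 difference over the square root of F. DESeq2 1.42.0, other scalings, no filter, each library left out and a replicate block were alternatives. The fit was tested on simulated counts. Between replicates, chi-square over its degrees of freedom was 2.46 to 13.8, so no libraries were merged.

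Miz1 peaks were called with MACS 2.0.10.20120913 at a q-value threshold of 0.01, per the file headers. The deposited values are a pileup signal, a fold (ratio over background), and -log10 p and q, all the authors'. Chromosomes, gene bounds and promoters are from RefSeq, GRCm38.p6.

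Samples were grouped by title and cell line. Samples of histone marks or input were not used here. The members and lists were chosen with earlier results of these data known. All members are named, with values per library for those called at an absolute difference of at least 0.4, those not called, and the extremes of each role. Of each other list of ribosome biogenesis genes, the 2 most raised and 2 most lowered called genes are named. Dcaf13 is named in addition, as a gene that passed the 2-fold test.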

Additional observations from a re-analysis of the deposited data

How the results depend on the processing

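Over 13 alternatives for each member and Myc (507 values), 465 kept their direction and side of the threshold, 15 lost the call, 20 gained it and 7 changed sign, in 12 genes, all with an absolute difference under 0.2. These counts include the alternative without replicate 1 of both lines. It was chosen after seeing the data, so its changes support nothing further. The sign changes were Fbl (0.0059) and Dkc1 (0.020) under upper-quartile scaling, both moved by the 0.057 that this scaling adds to the median of all genes, Ddx21 without P6D4 replicate 1 (-0.021) and without 70Z/3 replicate 1 (-0.0035; 0.063 at most with 1 library left out), and Nhp2 (-0.0039), Rrp9 (-0.011) and Ddx21 (-0.052) without replicate 1 of both lines. Members called higher and lower were 18 and 14 under upper-quartile scaling, 16 and 14 with no scaling, 17 and 16 with no filter, and 14 and 16 with DESeq2. Leaving out 1 library gave 12 to 17 higher and 14 to 18 lower, and 56 to 59 and 39 to 45 for the other ribosome biogenesis genes. Members lower past the 2-fold test were 0 under upper-quartile and no scaling, 2 without replicate 1 of both lines, and 0 to 1 when 1 library was left out. Members with a Miz1 summit were 0 in P6D4 within 500 bp and 0 in 70Z/3 at a -log10 q of at least 10. Members with CANNTG were 22. Same-numbered libraries did not deviate together (correlations of -0.055, -0.046 and 0.0084), and a fit with the replicate number as a block called 14 members higher and 15 lower, losing Noc2l (adjusted p = 0.0605), with 58 and 39 of the other genes. The Miz1 lists have no replicate, and their depth limits a comparison of binding.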

Other observations

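The 16 proliferation genes set beside the members also differed in both directions. Their summed level was 8040 to 8190 CPM in P6D4 and 8245 to 8386 CPM in 70Z/3. Of the 16, 6 were called higher in P6D4, 8 lower and 2 neither, with a median of -0.05. The shares over all genes tested were 43.3% higher and 43.2% lower. Pcna, the replication clamp, was not called (-0.01), and Mki67 was lower in P6D4 (-0.34).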
